A study of Mus musculus with 6 samples.

Results

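The 10 genes described here encode the PDGF receptors Pdgfra and Pdgfrb, the PDGF ligands Pdgfa and Pdgfc, the FGF receptors Fgfr1 and Fgfr2, the FGF ligands Fgf2 and Fgf7, the HGF receptor Met and its ligand Hgf. They were taken by name as mitogen receptors and ligands of fibroblasts, and all 10 were found among the 24938 genes listed. RNA sequencing was done on NIH3T3 cells, an established line of mouse embryonic fibroblasts. In 3 libraries the cells overexpressed F-CircAE, which the labels tie to the AML1-ETO fusion, and in the other 3 the cells were wild type. The genotype label calls the controls wild type, while their titles carry the letter V, whose meaning is not given, so it is not known whether these cells held an empty vector. If they held none, effects of the overexpression procedure and of the circular RNA cannot be told apart. The labels do not name a clone or state how many cultures the replicates of a group stem from. The p-values rest on the spread among these replicates alone, part or all of which may be technical. The design implies a single comparison, F-CircAE overexpression against wild type.

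All 5 receptors are tyrosine kinases of the cell surface. Binding of a ligand joins receptor chains, the chains phosphorylate each other, and adaptor proteins then pass the signal to Ras and the MAP kinases and to phosphoinositide 3-kinase and Akt. PDGF is the classical serum mitogen of fibroblasts, FGFs bind together with heparan sulfate, and HGF made by mesenchymal cells acts mainly on epithelial cells that carry Met.

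Levels are given in FPKM, fragments scaled by the authors for gene length and sequencing depth, so they can be compared between genes. The reads behind the values, recovered from their smallest steps, numbered between 16969915 and 21843880 per library. On the first principal component (35.5% of the variance) the libraries did not fall into their groups. Overexpression replicate 1 lay at 16.6 and wild type replicate 3 at 11.2 on it, overexpression replicates 2 and 3 lay at 0.59 and -1.34, and wild type replicates 1 and 2 at -13.9 and -13.3. Wild type replicates 1 and 2 were close to counting noise, since 40 of 14529 genes (0.275%) differed between them in an exact two-sided binomial test of reads (Benjamini-Hochberg adjusted p below 0.05). SDs and intervals of the wild type group may thus be too small at n = 3. Of the fibroblast markers 7 of 8 were listed, with a summed level of 1488 to 1789 FPKM in overexpression libraries and 1620 to 1929 FPKM in wild type libraries. Most of this sum was Vim, Col1a1 and Col1a2. The fibroblast marker Thy1 held only 1.20 to 2.89 FPKM with overexpression and 0.873 to 3.61 FPKM in wild type. S100a4 held 2.23 to 3.58 FPKM with overexpression and 2.08 to 3.22 FPKM in wild type. Listed blood cell markers (4 of 5) stayed at or below 0.179 FPKM in every library and listed endothelial markers (3 of 4) at or below 0.933 FPKM. Of the epithelial markers 3 of 5 were listed and summed to 2.95 to 3.31 FPKM with overexpression and 2.73 to 3.73 FPKM in wild type, most of it Cdh1, while Krt18 was at 0 in 5 of the 6 libraries. Muscle markers (2 of 4 listed) summed to 1.94 to 2.16 FPKM with overexpression and 2.22 to 2.37 FPKM in wild type.

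The genes covered a wide range of levels. Fgf7 was the highest, with a mean of 51.8 FPKM over the 6 libraries, above 95.95% of all listed genes. Fgfr1 followed at 28.4 FPKM, Pdgfra at 21.0, Pdgfa at 13.7, Met at 12.4, Pdgfrb at 12.1, Pdgfc at 6.06, Fgfr2 at 2.17, Fgf2 at 0.755 and Hgf at 0.0516 FPKM. In this order the library ranges of Fgfr1 and Pdgfra overlapped, as did those of each next pair down to Met and Pdgfrb. The ranges did not overlap between Fgf7 and Fgfr1, or between any neighbours from Pdgfrb down to Hgf. Among receptors Fgfr1 was thus the highest and Fgfr2 the lowest, and among ligands Fgf7 stood at one end and Hgf at the other.

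**Figure D1:**
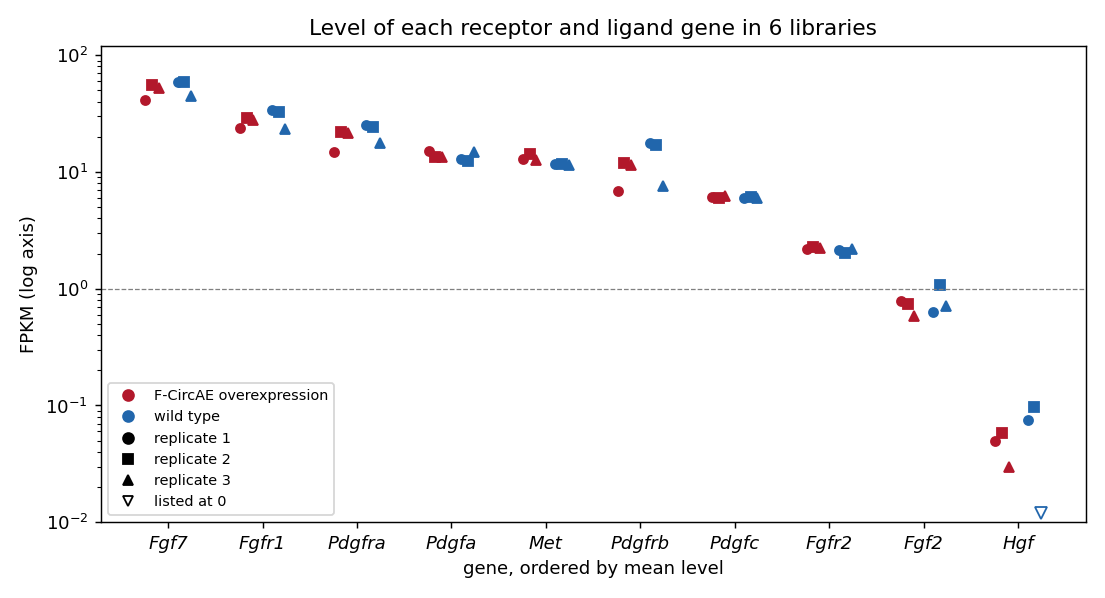
Level of the 10 genes in FPKM on a log axis, with 1 point per library, F-CircAE overexpression in red on the left and wild type in blue on the right of each gene. Fgf7 lies highest, Fgf2 lies below the dashed line at 1 FPKM in all but 1 library, and Hgf lies below 0.1 FPKM; the open triangle marks the wild type library where Hgf is listed at 0.

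No member passed the test between the groups. The test was limma on log2(FPKM + 1) for the 12222 genes above 1 FPKM in at least 3 libraries, with Benjamini-Hochberg adjustment over all of them and a threshold of 0.05. Fold changes are on that log2(FPKM + 1) scale, overexpression over wild type, which understates changes of low genes. Of the members 8 were tested, and Fgf2 and Hgf were too low. Among the 8 members 0 passed, where 0 of all tested genes did (0.0%, limma; smallest adjusted p = 0.260). At an unadjusted p below 0.05 there was 1 member of the 8, Met, against 632 of all tested genes (5.17%, of which 2.86% higher and 2.31% lower with overexpression). Limma-voom on recovered reads also called 0 genes of 14473 tested, with 755 at an unadjusted p below 0.05. The 8 estimates were split evenly, 4 above 0 and 4 below, with a median of -0.06 beside 0.008 for all tested genes, of which 53.2% lay above 0. After rescaling to equal FPKM sums 3 were above 0, with a median of -0.11 beside -0.047 for all tested genes.

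Pdgfra encodes the PDGF receptor chain that binds the A, B and C chains of PDGF, and lies on the plus strand of chromosome 5 (ENSMUSG00000029231, 75152292 to 75198215, mm10). It had 14.9, 22.1 and 21.8 FPKM in overexpression replicates 1, 2 and 3, against 25.4, 24.5 and 17.6 FPKM in wild type replicates 1, 2 and 3. Wild type replicates 1 and 2 were the highest, overexpression replicate 1 and wild type replicate 3 the lowest, and the groups overlapped. The means were 19.6 ± 4.06 FPKM with overexpression and 22.5 ± 4.25 FPKM in wild type (SD, n = 3 each), and the log2 estimate was -0.19, SE 0.19 (limma adjusted p = 0.853).

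Pdgfrb encodes the receptor chain for PDGF-BB and PDGF-DD, which marks pericytes and many fibroblasts, and lies on the plus strand of chromosome 18 (ENSMUSG00000024620, 61045150 to 61085061). Its level was 6.91, 11.9 and 11.5 FPKM in overexpression replicates 1, 2 and 3, against 17.8, 17.1 and 7.60 FPKM in wild type replicates 1, 2 and 3. The libraries thus stood in the same order as for Pdgfra, over a wider span: the highest library held 2.57 times the lowest, against 1.70 times for Pdgfra. On log2(FPKM + 1) the SD of Pdgfrb over the 6 libraries was 0.52, larger than in 97.7% of tested genes, and that of Pdgfra was 0.28, larger than in 91.1%. The means of Pdgfrb were 10.1 ± 2.79 FPKM with overexpression and 14.2 ± 5.70 FPKM in wild type (SD, n = 3 each). Its log2 fold change of -0.40 had a 95% interval of -1.198 to 0.405 (limma adjusted p = 0.850), the widest of the members. Without wild type replicate 3 the estimate was -0.76 (limma adjusted p = 0.260), and without overexpression replicate 1 it was -0.17 (limma adjusted p = 0.982). The level of Pdgfrb per unit of Pdgfra, both in FPKM, was 0.464, 0.540 and 0.531 in overexpression replicates 1, 2 and 3, against 0.701, 0.700 and 0.432 in wild type replicates 1, 2 and 3. The wild type libraries thus held both the highest ratio of these RNA levels and the lowest, and the groups overlapped.

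Pdgfa encodes the A chain, a ligand of the alpha receptor, and lies on the minus strand of chromosome 5 (ENSMUSG00000025856, 138976014 to 138997370). It had 15.2, 13.5 and 13.3 FPKM in overexpression replicates 1, 2 and 3, against 12.9, 12.4 and 14.7 FPKM in wild type replicates 1, 2 and 3. This is the order of its receptor turned round, with overexpression replicate 1 and wild type replicate 3 the highest and wild type replicates 1 and 2 the lowest. The means were 14.0 ± 1.07 FPKM with overexpression and 13.3 ± 1.20 FPKM in wild type (SD, n = 3 each), and the log2 fold change was 0.07 (limma adjusted p = 0.883). The ratio of Pdgfa to Pdgfra in FPKM was 1.02, 0.611 and 0.612 in overexpression replicates 1, 2 and 3, against 0.510, 0.507 and 0.835 in wild type replicates 1, 2 and 3. Exons of Pdgfa share 813 bases (26.1% of its exon length) with the antisense gene 6330403L08Rik, which held 2.22 to 2.38 FPKM with overexpression and 2.01 to 2.39 FPKM in wild type. The use of strand in counting is not given in the sources used here, so part of the reads of each is uncertain.

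Pdgfc, whose product is secreted in a latent form and cut to bind the alpha receptor, lies on the plus strand of chromosome 3 (ENSMUSG00000028019, 81036416 to 81214040). It had 6.14, 5.94 and 6.22 FPKM in overexpression replicates 1, 2 and 3, against 6.002, 6.12 and 5.94 FPKM in wild type replicates 1, 2 and 3. All 6 libraries agreed closely, the highest being 1.05 times the lowest, and the SD of 0.024 on log2(FPKM + 1) was larger than in 0.319% of tested genes. The log2 fold change of 0.015 had a 95% interval of -0.12 to 0.15 (limma adjusted p = 0.963), and it was -0.040 after rescaling to equal FPKM sums, where the median of all tested genes was -0.047.

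Fgfr1, the main FGF receptor of mesenchymal cells, lies on the plus strand of chromosome 8 (ENSMUSG00000031565, 25513654 to 25575718). Its level was 23.7, 29.2 and 27.7 FPKM in overexpression replicates 1, 2 and 3, against 33.7, 32.9 and 23.2 FPKM in wild type replicates 1, 2 and 3. Wild type replicates 1 and 2 were again on top, and wild type replicate 3 and overexpression replicate 1 at the bottom. The means were 26.9 ± 2.85 FPKM with overexpression and 29.9 ± 5.83 FPKM in wild type (SD, n = 3 each), and the estimate was -0.14 on the log2 scale (limma adjusted p = 0.876). Without wild type replicate 3 the estimate was -0.30 (limma adjusted p = 0.271), and without overexpression replicate 1 it was -0.051 (limma adjusted p = 0.987).

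Fgfr2 encodes a receptor with an epithelial (IIIb) and a mesenchymal (IIIc) splice form, which a value per gene does not separate. It is annotated on the minus strand of chromosome 7 (ENSMUSG00000030849, 130162451 to 133123350), with 314 exon bases shared with Ctbp2 on the same strand. Ctbp2 held 9.15 to 9.56 FPKM with overexpression and 8.47 to 9.37 FPKM in wild type. How reads in shared bases were counted is not given in the sources used here, so part of the reads of Fgfr2 is uncertain. Fgfr2 had 2.20, 2.26 and 2.23 FPKM in overexpression replicates 1, 2 and 3, against 2.15, 2.03 and 2.17 FPKM in wild type replicates 1, 2 and 3. On the authors' scale the overexpression libraries all lay above the wild type libraries, by small steps. These values rest on 385, 503 and 431 reads in overexpression replicates 1, 2 and 3, against 454, 447 and 429 reads in wild type replicates 1, 2 and 3. Whether steps as small as 2.20 against 2.17 FPKM exceed counting error was not tested. Groups without overlap on this scale were found in 2 of the 8 tested members, Fgfr2 and Met, both higher with overexpression. The share of all tested genes was 11.5% in either direction, 6.81% higher and 4.69% lower with overexpression. The log2 fold change of Fgfr2 was 0.05 with a 95% interval of -0.13 to 0.23 (limma adjusted p = 0.894). In FPKM, Fgfr1 was 10.8, 12.9 and 12.4 times Fgfr2 in overexpression replicates 1, 2 and 3, against 15.7, 16.2 and 10.7 times in wild type replicates 1, 2 and 3.

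Fgf7, or keratinocyte growth factor, is known as a product of fibroblasts that acts on the IIIb form of Fgfr2 in epithelia. It lies on the plus strand of chromosome 2 (ENSMUSG00000027208, 126034658 to 126091185) and had 41.5, 55.0 and 51.8 FPKM in overexpression replicates 1, 2 and 3, against 58.7, 58.4 and 45.1 FPKM in wild type replicates 1, 2 and 3. The order of the libraries was that of Pdgfra and Pdgfrb, although the highest library held only 1.41 times the lowest. The means were 49.4 ± 7.06 FPKM with overexpression and 54.1 ± 7.73 FPKM in wild type (SD, n = 3 each), a log2 fold change of -0.13 with a 95% interval of -0.46 to 0.21 (limma adjusted p = 0.876). Without wild type replicate 3 the estimate was -0.25 and without overexpression replicate 1 it was -0.0071, neither past the threshold (limma adjusted p = 0.383 and 0.999).

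Fgf2, or basic FGF, a ligand that lacks a classical signal peptide and binds Fgfr1, lies on the plus strand of chromosome 3 (ENSMUSG00000037225, 37348346 to 37410108). It was low, with 0.784, 0.747 and 0.584 FPKM in overexpression replicates 1, 2 and 3, against 0.627, 1.07 and 0.716 FPKM in wild type replicates 1, 2 and 3. Wild type replicate 2 stood alone at the top, and the groups overlapped. These values rest on 90, 109 and 74 reads with overexpression and 87, 155 and 93 reads in wild type. Fgf2 was one of the 40 genes that differed between wild type replicates 1 and 2, at 87 against 155 reads (exact two-sided binomial test, Benjamini-Hochberg adjusted p = 0.027 over 14529 genes). That test compares these libraries and not conditions, and reads of amplified libraries are not independent molecules. Exons of Fgf2 share 640 bases with those of Nudt6 on the other strand, a gene known as the antisense partner of Fgf2. Nudt6 held 3.24, 2.49 and 2.59 FPKM in overexpression replicates 1, 2 and 3, against 2.42, 3.49 and 2.52 FPKM in wild type replicates 1, 2 and 3. Both genes were highest in wild type replicate 2 and next highest in overexpression replicate 1. Shared reads were not tested as a source of this.

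Met encodes the HGF receptor and lies on the plus strand of chromosome 6 (ENSMUSG00000009376, 17463800 to 17573980). It had 13.0, 14.1 and 12.6 FPKM in overexpression replicates 1, 2 and 3, against 11.8, 11.8 and 11.5 FPKM in wild type replicates 1, 2 and 3. Every overexpression library lay above every wild type library, and wild type replicate 3, low for Pdgfrb, Pdgfra, Fgfr1 and Fgf7, differed little from the other wild type libraries. The means were 13.2 ± 0.81 FPKM with overexpression and 11.7 ± 0.17 FPKM in wild type (SD, n = 3 each), a ratio of 1.13. The log2 estimate was 0.17, SE 0.061, with a 95% interval of 0.023 to 0.31. Its unadjusted limma p was 0.028 (two-sided, model across all genes), and over all tested genes it missed the threshold (limma adjusted p = 0.842). With array weights, which weight libraries by their estimated noise, Met passed at 0.23 (limma adjusted p = 0.023), in a setting that called 2241 of all tested genes (18.3%). With wild type replicates 1 and 2 averaged to 1 library and array weights estimated anew, it did not pass (limma adjusted p = 0.915) and no gene did. Leaving out single libraries gave estimates between 0.12 and 0.20. The 95% interval then included 0 without overexpression replicate 2 or any single wild type replicate, and stayed above 0 without overexpression replicate 1 or 3. After rescaling to equal FPKM sums the estimate was 0.11, with a 95% interval of -0.039 to 0.25. With quantile normalization it was 0.15, with a 95% interval of 0.011 to 0.29.

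Hgf, the ligand of Met, lies on the plus strand of chromosome 5 (ENSMUSG00000028864, 16553495 to 16620152) and was close to the limit of detection. It had 0.0493, 0.0582 and 0.0298 FPKM in overexpression replicates 1, 2 and 3, against 0.0748, 0.0977 and 0 FPKM in wild type replicates 1, 2 and 3. Behind these were 6, 9 and 4 reads with overexpression and 11, 15 and 0 reads in wild type. For the 0 reads of wild type replicate 3, a floor of 3 reads is 0.0218 FPKM. The exact two-sided 95% Poisson interval reaches 0.0268 FPKM, and both limits cover counting error only. The wild type libraries thus held both the highest value and the lowest, and the groups overlapped. Hgf was too low to enter the test.

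Pdgfrb, Pdgfra, Fgfr1 and Fgf7 shared a library order. In each, wild type replicates 1 and 2 both lay above overexpression replicates 2 and 3, and these above overexpression replicate 1 and wild type replicate 3. The same order was found in 797 of all tested genes (6.52%), and the order turned round, as in Pdgfa, in 741 (6.06%). Since this order was noticed in the data, it is given as a description without a test. Of the 7 tested fibroblast markers 3 had it too, namely Col1a1, Col1a2 and Col3a1, which encode fibrillar collagens. Col3a1 held 48.8, 94.6 and 108 FPKM in overexpression replicates 1, 2 and 3, against 148, 146 and 85.6 FPKM in wild type replicates 1, 2 and 3. The fibroblast markers Vim, at 567 to 665 FPKM with overexpression and 560 to 606 FPKM in wild type, and Thy1 and S100a4 did not have it. Dcn departed from it in 1 pair, with 14.3, 25.5 and 32.6 FPKM in overexpression replicates 1, 2 and 3, against 57.2, 58.1 and 26.4 FPKM in wild type replicates 1, 2 and 3. In these bulk libraries, fewer cells of a kind and less RNA per cell cannot be told apart, and the part of these markers in the order of the receptors was not tested.

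**Figure D2:**
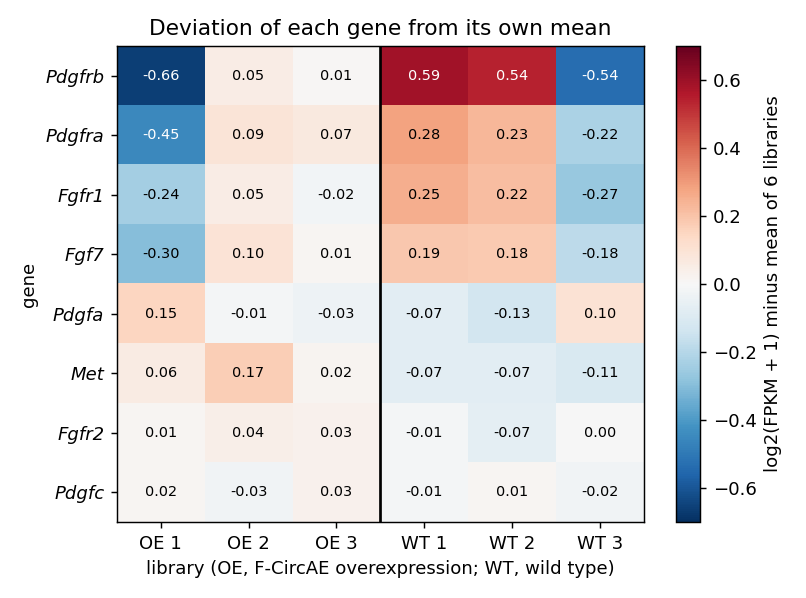
Deviation of each tested gene from its own mean over the 6 libraries, on log2(FPKM + 1), with overexpression libraries left of the line and wild type libraries right of it. The upper 4 genes are low in OE 1 and WT 3 and high in WT 1 and WT 2, from -0.66 to 0.59 for Pdgfrb; Pdgfa is turned round, Met is higher in all 3 overexpression libraries, and Fgfr2 and Pdgfc hardly vary.

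Sequence next to a RefSeq transcription start is shown for Pdgfra and Fgf7, which shared the order, and for Pdgfa, which had it turned round. It is also shown for Met, whose groups did not overlap. Pdgfrb and Fgfr1 shared the order too, but no window of theirs is described here. The RefSeq table for GRCm38.p6, the same assembly as mm10, held a window for 8 of the 10 members. The 250 bases before the RefSeq start were searched, at the start farthest upstream where the table gave several. These windows are chr5:75152001-75152250 (plus strand) for Pdgfra, chr2:126034408-126034657 (plus) for Fgf7, chr5:138994945-138995194 (minus) for Pdgfa and chr6:17463707-17463956 (plus) for Met. GENCODE M21 has starts farther upstream than RefSeq for Met and Pdgfa, so that 157 and 93 bases of their windows lie in exons of the gene itself, and the Pdgfa window lies wholly within the annotated gene. For these genes only the bases before those exons are printed, 93 for Met (chr6:17463707-17463799) and 157 for Pdgfa (chr5:138995038-138995194). Capitals mark a match, on either strand, to the GC box GGGCGG, and the AP-1 motif TGANTCA was searched likewise.
Pdgfra: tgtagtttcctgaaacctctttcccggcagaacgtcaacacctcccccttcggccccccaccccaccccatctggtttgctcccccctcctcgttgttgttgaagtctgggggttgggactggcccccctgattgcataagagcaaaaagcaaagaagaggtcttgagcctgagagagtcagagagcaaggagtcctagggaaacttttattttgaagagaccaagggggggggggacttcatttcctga
Fgf7: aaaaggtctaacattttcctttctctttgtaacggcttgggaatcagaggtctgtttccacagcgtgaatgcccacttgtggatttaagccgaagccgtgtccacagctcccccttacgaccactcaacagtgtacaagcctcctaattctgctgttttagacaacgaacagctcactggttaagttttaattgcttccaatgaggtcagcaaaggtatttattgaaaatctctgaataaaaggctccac
Pdgfa: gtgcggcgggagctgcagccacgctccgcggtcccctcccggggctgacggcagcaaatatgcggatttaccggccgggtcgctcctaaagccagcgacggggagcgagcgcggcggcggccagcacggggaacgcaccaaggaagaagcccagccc
Met: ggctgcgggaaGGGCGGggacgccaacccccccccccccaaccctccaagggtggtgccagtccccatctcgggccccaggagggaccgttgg
Of all 32851 windows of the same length, 32.7% held the GC box and 6.75% the AP-1 motif. The RUNX motif TGTGGT was also searched on both strands and was held by 14.0% of windows, the TEAD motif GGAATG by 12.6% and the TATA box TATAAA by 12.4%. Pdgfra and Fgf7 held none of the 5 motifs, Pdgfa held 2 GC boxes, both in the exon bases not printed. Met held 3 GC boxes and 1 AP-1 match, of which only the GC box starting 239 bases before the RefSeq start lies outside the exon annotated by GENCODE. Pdgfra and Fgf7 had 54.4% and 43.6% G or C with 4 and 6 CG dinucleotides, beside medians of 52.4% and 6 over all windows. The whole windows of Pdgfa and Met had 72.4% and 74.0% with 28 and 24 CG dinucleotides, more G or C than 93.6% and 95.1% of windows. Windows of Fgfr2, Pdgfc and Hgf were searched but are not printed. Fgfr2, whose groups did not overlap on the authors' scale either, held no motif, with 44.0% G or C and 2 CG dinucleotides. Pdgfc held 1 TEAD match, with 50.8% and 3 CG dinucleotides, and Hgf held no motif, with 50.8% and 4. No matches overlapped. A match describes the letters only, no match says only that these letters are not in the window, and no binding was measured here.

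The group differences were next compared with and without the libraries that stood apart. Without wild type replicate 3, the estimates of Pdgfrb, Pdgfra, Fgfr1 and Fgf7 moved to -0.76, -0.35, -0.30 and -0.25, and that of Pdgfa to 0.13. Without overexpression replicate 1 these stood at -0.17, -0.017, -0.051, -0.0071 and 0.0097. No member passed in either setting (smallest limma adjusted p 0.260 and 0.947), where 0.0164% and 0.00818% of all tested genes did. Met stood at 0.16 without wild type replicate 3 and 0.18 without overexpression replicate 1. Over all 6 single-library omissions, the highest and lowest estimates of every tested member differed by more than 1.5 times, Fgfr2 at 0.033 to 0.067 and Pdgfc at 0.0032 to 0.032 included.

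**Figure D3:**
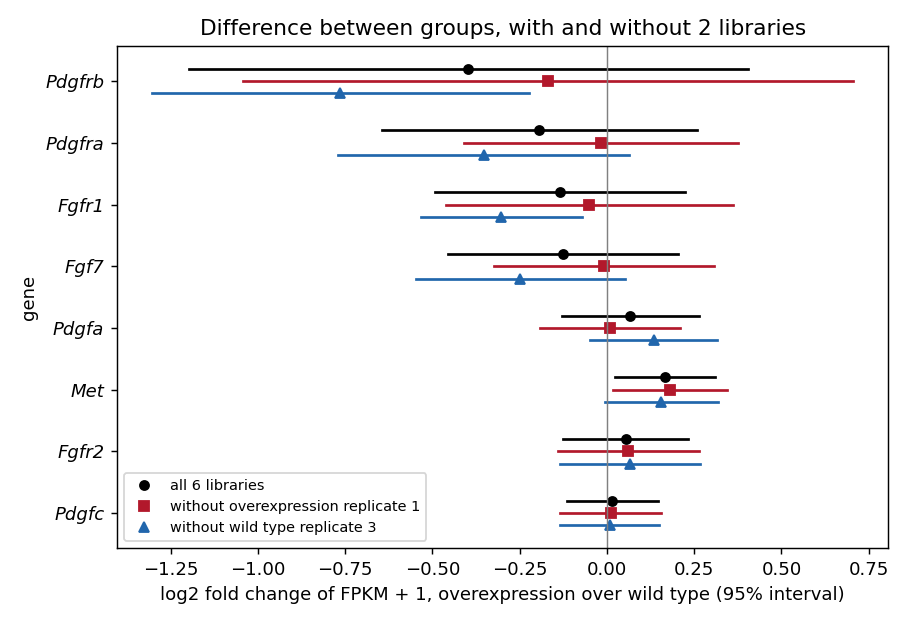
Log2 fold change of FPKM + 1, overexpression over wild type, with 95% limma intervals, for all 6 libraries and without each of the 2 libraries named. The estimate of Pdgfrb ranges from -0.76 to -0.17, while those of Met, Fgfr2 and Pdgfc move little with these 2 omissions; intervals are not adjusted for the number of genes.

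Other genes of these pathways were taken from lists by role, and 0 of their tested genes passed in either direction (limma, adjusted over all tested genes). Of the other ligands 9 of 11 were listed, 7 of them at or below 0.288 FPKM in every library, Pdgfb included. Of the 2 tested, Fgf10, which shares the IIIb form of Fgfr2 with Fgf7, held 8.42 ± 0.77 FPKM with overexpression and 9.90 ± 2.63 FPKM in wild type (SD, n = 3 each). Mst1, the HGF-like ligand of the receptor Mst1r, held 1.72 ± 0.40 FPKM with overexpression and 1.67 ± 0.93 FPKM in wild type (SD, n = 3 each). Fgf10 had 8.11, 9.29 and 7.84 FPKM in overexpression replicates 1, 2 and 3, against 11.5, 11.4 and 6.87 FPKM in wild type replicates 1, 2 and 3, so that wild type held both its highest libraries and its lowest.

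Among the other receptors and coreceptors 12 of 13 were listed and 8 tested, 3 with estimates above 0 and 5 below, with a median log2 fold change of -0.05. After rescaling to equal FPKM sums 2 were above 0, with a median of -0.11. Fgfr3, Fgfr4, Mst1r and the coreceptor Klb stayed at or below 0.159 FPKM in every library, so that of the FGF receptor kinases only Fgfr1 and Fgfr2 were above 1 FPKM. The heparan sulfate carrier Sdc2 held 49.2 ± 1.88 FPKM with overexpression and 54.0 ± 4.83 FPKM in wild type, and its relative Sdc1 held 51.6 ± 3.80 FPKM with overexpression and 48.5 ± 2.16 FPKM in wild type (SD, n = 3 each). Sdc2 had the library order of Pdgfra and Sdc1 that of Pdgfa.

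Of the genes for ligand processing and heparan sulfate all 15 were listed and 10 tested, 1 with an estimate above 0 and 9 below, with a median of -0.09 (smallest limma adjusted p = 0.843). After rescaling to equal FPKM sums 0 were above 0, with a median of -0.15. Hspg2, which encodes perlecan, held 65.6 ± 4.03 FPKM with overexpression and 71.2 ± 6.14 FPKM in wild type (SD, n = 3 each). Plat, the tissue plasminogen activator, held 15.7 ± 0.52 FPKM with overexpression and 17.6 ± 2.56 FPKM in wild type (SD, n = 3 each). The HGF activator genes Hgfac and St14 and their inhibitors Spint1 and Spint2 stayed at or below 0.152 FPKM.

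Downstream of the receptors, 19 of 20 adaptor genes were tested, 11 with estimates above 0 and 8 below, with a median of 0.006. Rescaling to equal FPKM sums, which moved the median of all tested genes to -0.047, left 5 of them above 0 and moved the list's median to -0.045. Crk held 53.5 ± 3.41 FPKM with overexpression and 49.7 ± 1.39 FPKM in wild type, and Grb2, which links receptors to the Ras activator Sos, held 43.3 ± 1.08 FPKM with overexpression and 43.3 ± 0.45 FPKM in wild type (SD, n = 3 each). All 12 genes of Ras, the MAP kinase cascade and Akt were tested, 7 above 0 and 5 below, with a median of 0.03 (3 above 0 and a median of -0.036 after the same rescaling). The MAP kinase Mapk3 held 74.3 ± 9.95 FPKM with overexpression and 75.9 ± 7.69 FPKM in wild type, and Akt1 held 65.0 ± 2.94 FPKM with overexpression and 62.6 ± 3.95 FPKM in wild type (SD, n = 3 each). Of these 12 genes 0 had the library order of Pdgfra, beside 6.52% of all tested genes. The order turned round was found in 4, Akt1 among them, beside 6.06% of all tested genes.

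All 13 induced targets and feedback inhibitors were tested, 4 with estimates above 0 and 9 below, with a median of -0.08. After rescaling to equal FPKM sums 3 were above 0, with a median of -0.15. Dusp6, an ERK phosphatase, held 40.7, 35.8 and 32.5 FPKM in overexpression replicates 1, 2 and 3, against 43.3, 44.8 and 30.8 FPKM in wild type replicates 1, 2 and 3. Ccnd1, which encodes cyclin D1, held 130, 120 and 113 FPKM in overexpression replicates 1, 2 and 3, against 99.3, 97.97 and 139 FPKM in wild type replicates 1, 2 and 3. Wild type replicate 3 was thus the lowest library for Dusp6 and the highest for Ccnd1. Of the 13 targets 4 had the library order of Pdgfra and 2, Ccnd1 among them, had it turned round.

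**Figure D4:**
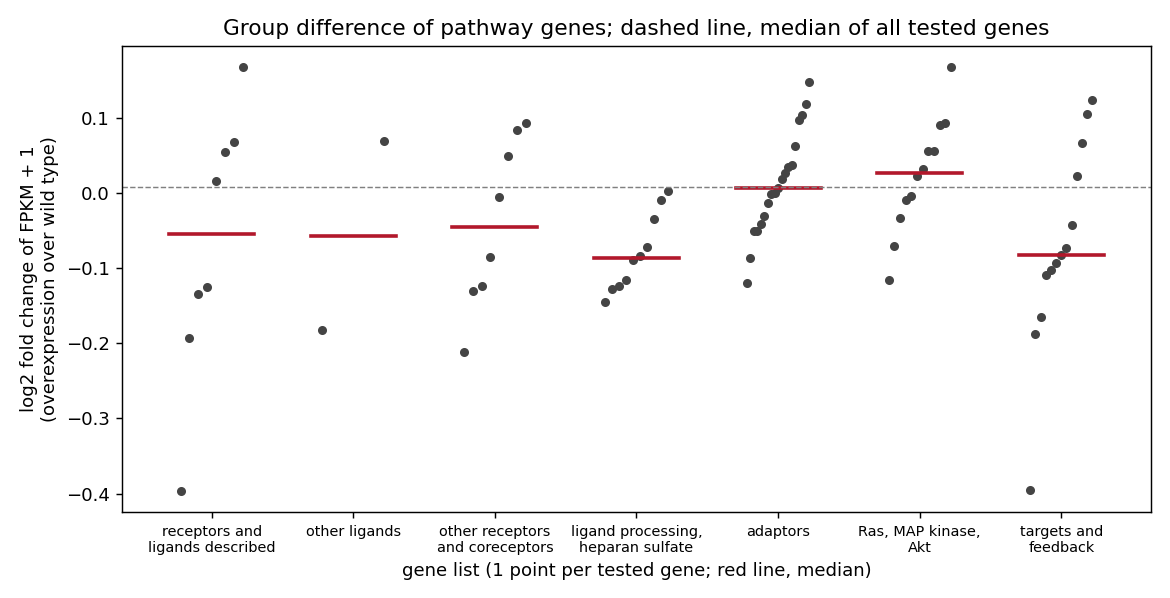
Log2 fold change of FPKM + 1, overexpression over wild type, for the tested genes of each list, 1 point per gene, with the list's median in red and the median of all tested genes dashed. Points lie on both sides of 0 in every list; the lowest are Pdgfrb among the receptors and ligands described, and Egr1 among the targets, each at -0.40.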

How the data were processed

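RNA of 6 NIH3T3 libraries was measured. Per the labels' protocols, an Illumina HiSeq read paired ends of NEBNext Ultra RNA libraries. Each file holds FPKM values per Ensembl gene ID, scaled by the authors, per the file headers. The submitters' processing notes name the build mm10, while for aligner, counter, strand use and annotation the sources used here name nothing. Symbols and coordinates came from GENCODE M21 (24816 of 24938 IDs). Groups came from the genotype label and replicate numbers from titles.

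Genes above 1 FPKM in at least 3 libraries were tested with limma 3.58.1 (R 4.3.3; trend, robust) after taking log2(FPKM + 1), without covariates. Reads were recovered by dividing FPKM times gene length by each library's step. The annotated exon length gave whole reads within 0.01 reads plus a relative 1e-08 for 19832 genes (79.5%). For the other 5106 genes, Fgfr1 among them, the smallest length that did so was used, so whole reads there are no independent check. Both steps were tested on simulated data. Floors cover counting error only.

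The members and lists were chosen with earlier results of these data known. The rule for named genes took all members, the 2 genes of highest mean FPKM of each other list and any gene past the threshold; other genes were named after their values were seen. Alternatives changed the pseudocount, filter, scaling, weights, libraries, block and unit tested. Replicate numbers were not taken to pair libraries.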

Additional observations from a re-analysis of the deposited data

How the results depend on the processing

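The count of 0 genes past the threshold (limma) held under pseudocounts of 0.1 and 5, no filter or a filter at 5 FPKM, rescaling to equal FPKM sums, quantile normalization, averaging wild type replicates 1 and 2 (also with array weights, added after seeing the data) and limma-voom on recovered reads. Array weights gave 2241 genes, and leaving out single libraries gave 0 to 2, namely Mir7061 without overexpression replicate 1, and Ccl9 and Errfi1 without wild type replicate 3. Of 135 estimates of the 8 tested members under these alternatives 127 kept their direction and their side of the threshold, 7 changed sign and 1, Met with array weights at 0.23, newly passed. With wild type replicates 1 and 2 averaged and array weights, the sign changed for Pdgfra (0.038), Fgfr1 (0.043), Fgf7 (0.062), Pdgfa (-0.0064) and Pdgfc (-0.0039). Pdgfc also changed sign with array weights (-0.017) and after rescaling to equal FPKM sums (-0.040). The cause was not tested for any of these. The untested Fgf2 and Hgf, at -0.076 and -0.015 in mean log2(FPKM + 1), stood at 0.027 and 0.012 without wild type replicate 2. Hgf rests on 0 to 15 reads and Fgf2 on 74 to 155 reads per library, and Fgf2 also differed between wild type libraries by more than counting error.

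With the replicate number as a block 0 genes passed and 444 had an unadjusted p below 0.05, against 632 without the block. Deviations of same-numbered libraries from their group means correlated at -0.10, 0.083 and 0.0025 for replicates 1, 2 and 3. With 3 libraries per group these values cannot show whether same-numbered libraries were handled together, and the labels do not say. The block changed no member's call.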
